A study of Arabidopsis thaliana with 2 samples.

Results

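FWA (AT4G25530) and HDG10 (AT1G34650) encode class IV homeodomain proteins, and their transcripts in young Arabidopsis thaliana seeds came mostly from opposite parents. FWA matched the maternal allele in 64 of 66 matches, and HDG10 matched the paternal allele in 226 of 261. Both genes were chosen as family members of opposite parental bias with these libraries known, so the opposite direction is a description and was not tested. The members are the single nucleotide polymorphism (SNP) windows inside each gene region on the TAIR8 build, namely 1 window on chromosome 4 from 13040109 to 13040179 for FWA and 32 windows on chromosome 1 from 12693205 to 12697756 for HDG10. These are 33 of the 147349 SNP windows with at least 1 match. Which exon or untranslated region a window lies in was not analysed here.

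The study crossed the accessions Col-0 and Bur-0 in both directions and sequenced mRNA of whole F1 seeds at 4 days after pollination (DAP). The mother is named first, so that Bur-0×Col-0 had a Bur-0 mother and Col-0 pollen, whereas Col-0×Bur-0 had a Col-0 mother and Bur-0 pollen. All mothers were emasculated and pollinated by hand, and the labels name no mutant, transgene or treatment. A match is a 36-nt read placed on the 71-nt stretch around a SNP that carries the Col-0 or the Bur-0 allele, with at most 2 mismatches. Each cross is 1 sample read in 4 lanes, here named A to D, so there is no replicate of a cross. Whether the lanes of a cross came from the same library preparation is not stated, and library here means the 4 lanes together. All intervals and p-values compare the reads of these libraries and cover counting error only. Reads were not counted by molecule, so matches are not independent molecules.

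Class IV homeodomain-leucine zipper proteins are plant transcription factors with a homeodomain, a zipper-like dimerization motif and a START domain, and several of them act in the epidermis. The endosperm, the nourishing tissue of the seed, receives genomes of both parents at 2m:1p, and imprinted genes are transcribed there mainly from the allele of 1 parent. In the embryo the ratio is 1m:1p, and the study expects genes expressed mainly in the embryo to mimic a paternal bias. FWA is known as a gene that is transcribed from the maternal allele in the endosperm and is kept silent elsewhere by DNA methylation of repeats at its 5′ end, and it delays flowering when it is transcribed in vegetative tissue.

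The libraries held 8576779 matches in Bur-0×Col-0 against 6773239 in Col-0×Bur-0, between 1295748 and 2313110 per lane, and 95.4% and 93.2% of them were maternal. Lane A of Col-0×Bur-0 stood apart. Its window counts differed from those of the other lanes of that cross with a mean chi-square of 7.04 to 8.28 per window and allele, against 0.989 to 1.26 between all other pairs of lanes of a cross. Whether that lane came from another preparation was not tested. In both crosses the read names of lanes A to C carried 1 instrument name and those of lane D another. Markers of seed tissues were looked for in the study's lists of parentally biased genes, so their direction was fixed by how they were found and only their presence was checked. All 7 seed coat genes of the flavonoid pathway that were looked for (BAN, LDOX, TT2, TT8, TT12, TT4 and DFR) were placed, with 2284 to 146171 matches in Bur-0×Col-0 against 1870 to 95077 in Col-0×Bur-0, and at least 99.8% of them were maternal in each cross. The seed coat is maternal tissue, so maternal matches from the coat and from the maternal genome of endosperm and embryo cannot be told apart. Many paternally biased genes of the study were strong in pollen but weak in endosperm. For these the study proposes that RNA brought in by the sperm cells was still present at 4 DAP. It therefore kept as candidates only genes with endosperm expression. Paternal matches from such RNA and from transcription in the seed cannot be told apart either. PHE1, an endosperm MADS-box gene known for paternal transcription, had a maternal share of 3.57% in Bur-0×Col-0 against 39.8% in Col-0×Bur-0. The endosperm marker AGL62 and the embryo markers WOX2 and LEC1 were looked for but could not be placed, so their presence was not checked.

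FWA was read almost only from the maternal allele in both crosses. Its window matched the maternal allele 42 times and the paternal allele 2 times in Bur-0×Col-0, so that 95.5% were maternal (95% Wilson interval of 84.9 to 98.7). The counts in the reciprocal Col-0×Bur-0 were 22 and 0, so that 100% were maternal (85.1 to 100). For the 0 paternal matches of 22, a limit of 3 matches would be a share of 13.6%, and the Wilson limit was 14.9%. The 4 lanes of Bur-0×Col-0 gave 8, 14, 9 and 11 maternal matches and 1, 0, 0 and 1 paternal. Those of Col-0×Bur-0 gave 9, 5, 5 and 3 maternal matches and no paternal match. Maternal matches exceeded paternal in all 8 lanes, as the plot of matches per lane shows, and the paternal matches of FWA came from lanes A and D of Bur-0×Col-0.

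Against 2m:1p, the maternal excess of FWA had a one-sided exact binomial p of 4.6e-06 in Bur-0×Col-0 against 1.3e-04 in Col-0×Bur-0. The joint p, the larger of both squared, was 1.8e-08 with q = 1.0e-07 over the whole table. The direction was known when the gene was chosen, so this is a placement in the table rather than independent evidence. With lane D alone, which held 15 matches, the joint p was 0.0878 and q = 0.278, so the call was lost at that depth. A maternal call was also the rule in these seeds, with 32.1% of all windows called maternal and 91.9% of the windows with 20 or more matches per cross. FWA ranked at 25534 of 147250 rows.

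HDG10 was read mostly from the paternal allele in both crosses. Its windows matched the maternal allele 25 times and the paternal allele 139 times in Bur-0×Col-0, so that 15.2% were maternal (10.5 to 21.5). The counts in the reciprocal Col-0×Bur-0 were 10 and 87, so that 10.3% were maternal (5.70 to 18.0). The lanes of Bur-0×Col-0 gave 6, 5, 6 and 8 maternal matches against 34, 34, 46 and 25 paternal. Those of Col-0×Bur-0 gave 3, 5, 2 and 0 maternal against 19, 21, 26 and 21 paternal. Paternal matches exceeded maternal in all 8 lanes, including lane A of Col-0×Bur-0. Without that lane, Col-0×Bur-0 had 7 maternal and 68 paternal matches of HDG10 and 13 and 0 of FWA, and the joint p was 1.9e-49 and 2.6e-05.

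**Figure D1:**
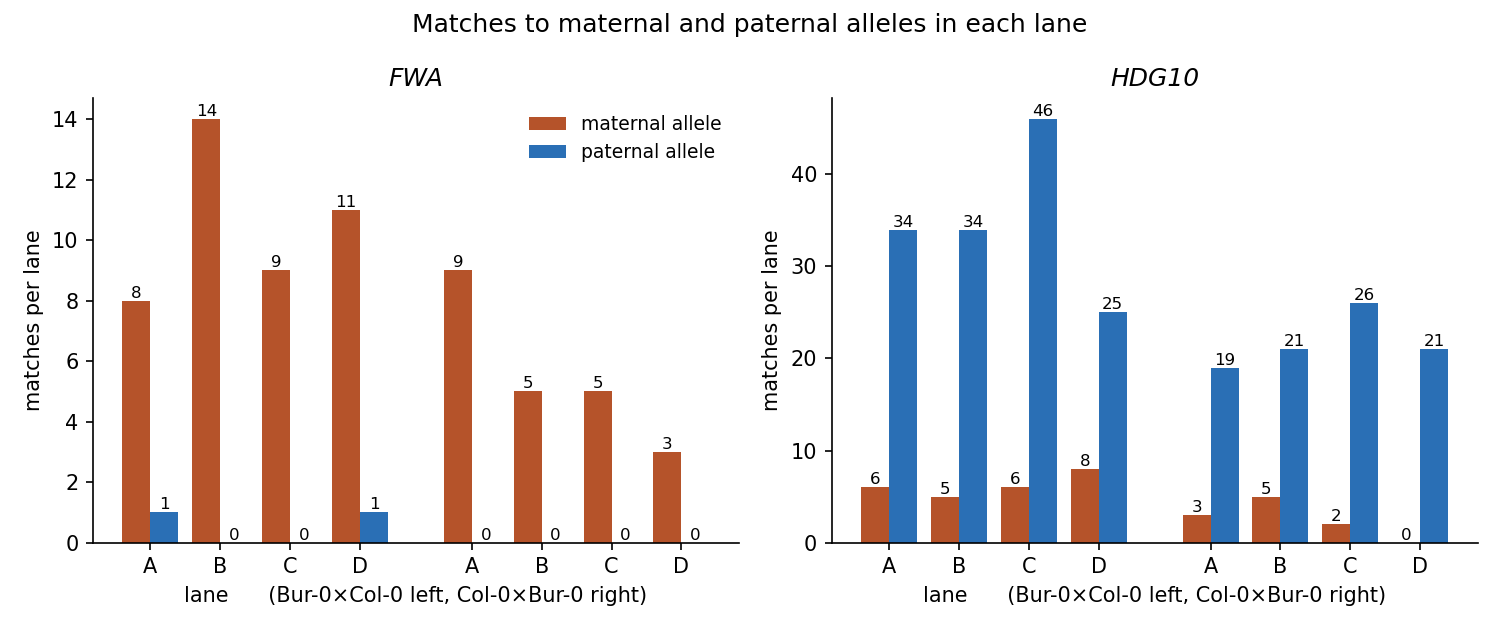
Matches to the maternal and the paternal allele in each lane (y axis, matches per lane, with a different scale for each gene) for FWA on the left and HDG10 on the right, with the 4 lanes of Bur-0×Col-0 followed by the 4 lanes of Col-0×Bur-0. The maternal bar is the taller in all 8 lanes for FWA (3 to 14 maternal matches), and the paternal bar is the taller in all 8 lanes for HDG10 (19 to 46 paternal matches).

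The one-sided exact binomial p for a paternal excess of HDG10 over 2m:1p was 4.6e-42 in Bur-0×Col-0 against 7.2e-31 in Col-0×Bur-0. With its windows entered as 1 row, the joint p was 5.1e-61 with q = 7.5e-56, the smallest paternal p of 147250 rows. HDG10 was selected for paternal bias, and it was ranked as a sum over 32 windows among rows that are mostly single windows. Only 0.0516% of all windows were called paternal, and 0.0687% of those with 20 or more matches per cross. The call of HDG10 held in each of the 18 alternatives tried, with a joint p between 1.3e-63 and 6.7e-06. Among them, the binomial test against 1m:1p, the genome ratio of the embryo, gave a joint p of 8.0e-33.

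The 2 genes also lay far apart when set among the 34959 windows with 20 or more matches per cross. Their median maternal share was 98.3% in Bur-0×Col-0 against 98.1% in Col-0×Bur-0. For FWA, 23.8% of these windows had a lower share in Bur-0×Col-0, and 30.4% of them shared its 100% in Col-0×Bur-0. For HDG10, 300 of these windows had a lower share in Bur-0×Col-0 against 620 in Col-0×Bur-0, but only 4 were at or below it in both crosses. An excess of paternal matches in both crosses was seen in 17 of these windows. The share of HDG10 is a sum over windows and the others are shares of single windows.

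**Figure D2:**
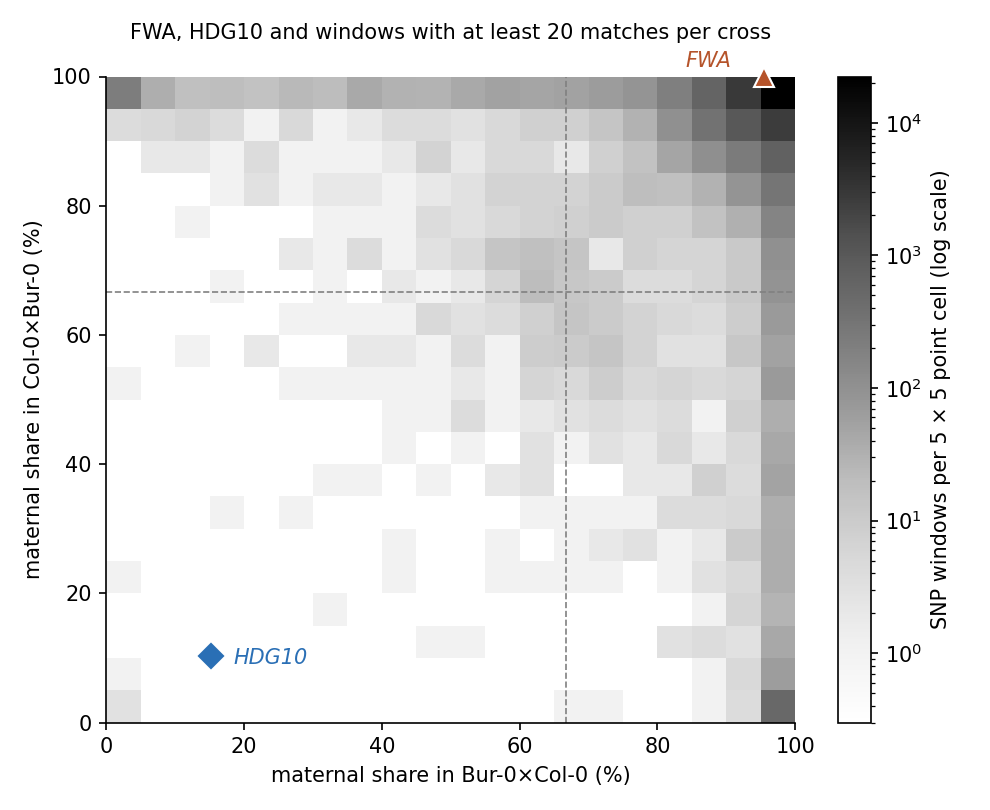
Maternal share of matches in Bur-0×Col-0 (x axis, percent) and in Col-0×Bur-0 (y axis, percent) for 34959 windows with 20 or more matches per cross, shaded by the number of windows per cell on a log scale, with FWA as a triangle, HDG10 as a diamond and 2m:1p as dashed lines. FWA lies at 95.5% and 100% beside most windows, and HDG10 lies at 15.2% and 10.3%, where 4 windows are at or below it in both crosses.

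Reciprocal crosses allow the same allele to be followed through the mother and through the father. The Bur-0 allele of FWA had 42 matches when inherited from the mother and 0 when inherited from the father. In matches per 1000000 matches of the library (RPM), this is an 11.1-fold difference with the 0 set to a floor of 3 matches. The exact interval of the ratio for 42 and 0 matches began lower, at 8.60. The Col-0 allele of FWA had 22 maternal and 2 paternal matches, a 13.9-fold difference in RPM with an interval of 3.42 to 122. Both accessions' alleles of FWA were thus counted more often from the mother.

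The Bur-0 allele of HDG10 had 87 matches from the father and 25 from the mother, a 4.41-fold difference in RPM (2.80 to 7.18). The Col-0 allele of HDG10 had 139 from the father and 10 from the mother, an 11.0-fold difference (5.79 to 23.4). In RPM, the Bur-0 allele was more frequent from the father in 29 of 32 windows and from the mother in 3. The Col-0 allele was more frequent from the father in all 23 windows that had any match to it, and 9 windows had none. In the 11 windows over 35 nt from any other matched SNP, the differences were 3.12-fold for Bur-0 (15 maternal and 37 paternal matches) and 22.4-fold for Col-0 (3 and 85).

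**Figure D3:**
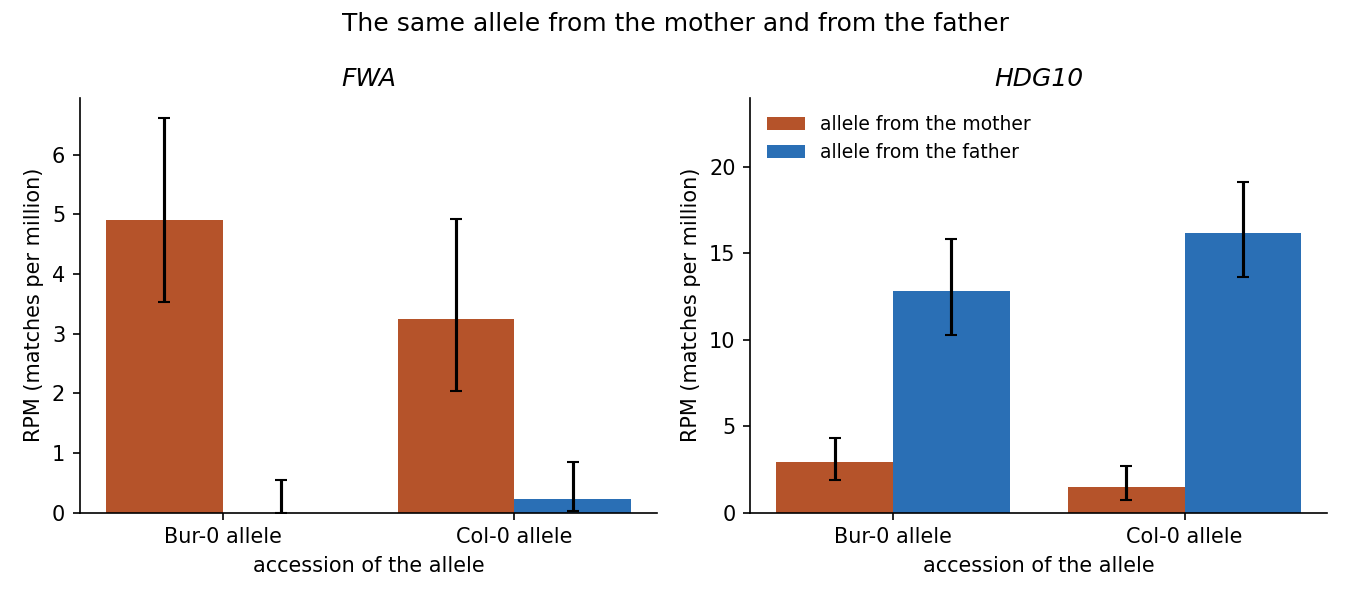
RPM (y axis, with a different scale for each gene) for the Bur-0 and the Col-0 allele of FWA (left) and HDG10 (right), from the mother and from the father, with exact 95% Poisson intervals. The maternal bar is the taller for both alleles of FWA (42 against 0 and 22 against 2 matches), and the paternal bar for both alleles of HDG10 (87 against 25 and 139 against 10).

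The maternal share did not differ detectably between the crosses for either gene. The difference, Bur-0×Col-0 minus Col-0×Bur-0, was -4.55 percentage points for FWA (two-sided Fisher's exact p = 0.549, adjusted p = 1) and 4.94 points for HDG10 (p = 0.347, adjusted p = 1), with adjustment over 94900 rows of which 7.72% were called. A p that misses the threshold does not show that the shares are equal. For HDG10 the lanes moved this value. Lanes A to C gave 17 maternal matches and 114 paternal in Bur-0×Col-0 against 10 and 66 in Col-0×Bur-0, or 12.98% and 13.16%. Lane D gave 8 and 25 in Bur-0×Col-0 against 0 and 21 in Col-0×Bur-0, or 24.2% and 0%, with an unadjusted p of 0.0172 in the exact test and an adjusted p of 0.413. The difference between the lane groups was not tested.

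The level of FWA was 5.13 RPM (exact Poisson interval 3.73 to 6.89) in Bur-0×Col-0 and 3.25 (2.04 to 4.92) in Col-0×Bur-0. The ratio, Col-0×Bur-0 over Bur-0×Col-0, was 0.633 with an interval of 0.361 to 1.08, and 0.335 with lane D alone. HDG10 had 19.1 (16.3 to 22.3) and 14.3 (11.6 to 17.5), a ratio of 0.749 (0.577 to 0.969). In its windows over 35 nt from any other matched SNP the ratio was 0.507, outside that interval, so it depended on the windows used. With 1 sample per cross neither gene's ratio was tested, and fewer cells of a type and less RNA per cell cannot be told apart in whole seeds. The levels of both genes are not compared with each other, since they rest on 1 and 32 windows.

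The 32 windows of HDG10 spanned 4552 nt and held 1 to 29 matches each, with a median of 6. Of the 22 windows matched in both crosses, 19 leaned to the paternal allele in each of them. The 3 others were the window starting at 12694525 with 1 maternal and 1 paternal match in Bur-0×Col-0, the window at 12694701 with 2 and 2 in Col-0×Bur-0, and the window at 12696311. No maternal match was found in 18 of the 32 windows, and the others had 1 to 7. The plot of matches along HDG10 shows paternal matches over the whole stretch.

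On their own, 2 of the 32 windows passed the joint test in the paternal direction and 0 in the maternal. The window at 12697562 had 1 maternal match and 15 paternal in Bur-0×Col-0 against 0 and 7 in Col-0×Bur-0 (q = 6.8e-04). The window at 12697598, with the most matches, had 3 and 18 in Bur-0×Col-0 against 1 and 7 in Col-0×Bur-0 (q = 0.0157), which is 11.1% of all HDG10 matches. A window needed at least 5 all-paternal matches in each cross to be called, and 6 windows of HDG10 had that depth. Among all windows of the series with that depth, 0.126% were called paternal. Without its window of most matches the gene kept 22 maternal matches and 121 paternal in Bur-0×Col-0 against 9 and 80 in Col-0×Bur-0.

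**Figure D4:**
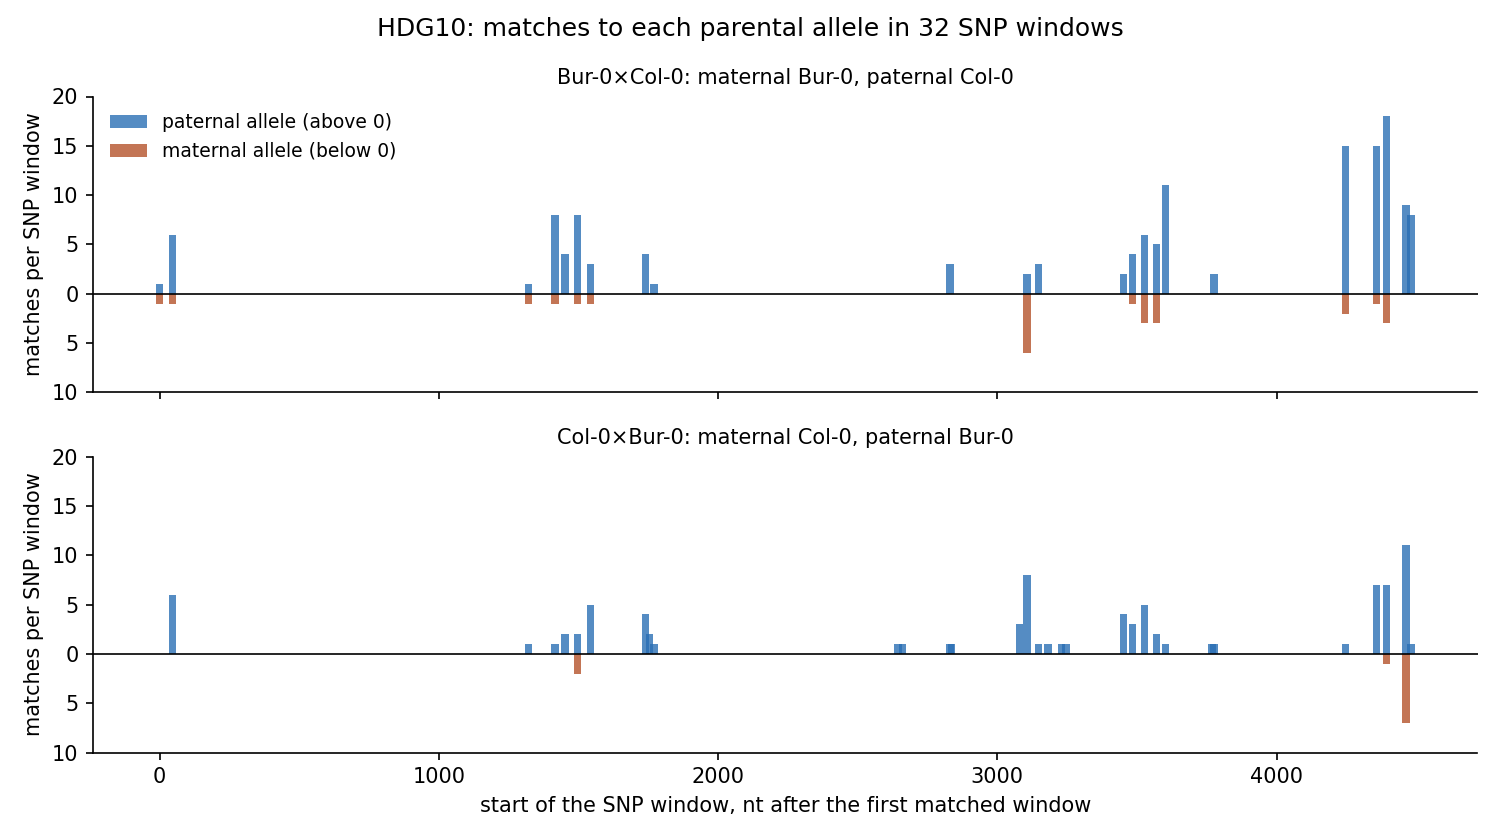
Matches per SNP window of HDG10 (y axis) against the start of the window in nt after the first matched window (x axis), with paternal matches above 0 and maternal matches below 0, for Bur-0×Col-0 (top) and Col-0×Bur-0 (bottom). Paternal matches occur along all 4552 nt, with up to 18 in a window, and the largest maternal counts are 6 in the window at 12696311 in Bur-0×Col-0, and 7 in the window at 12697668 in Col-0×Bur-0.

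The maternal matches of HDG10 lay in 13 windows in Bur-0×Col-0, with 1 to 3 in each but the window at 12696311, and in 3 windows in Col-0×Bur-0. The window at 12696311 had 6 maternal matches and 2 paternal in Bur-0×Col-0 but 0 and 8 in Col-0×Bur-0, and 4 of its 6 maternal matches shared their start and strand, in 2 lanes. The window at 12697668 had 7 of the 10 maternal matches of Col-0×Bur-0, beside 11 paternal, and had 0 and 9 in Bur-0×Col-0. Of these 7, 5 shared their start and strand, in 3 lanes. Repeated starts were seen among paternal matches too, with up to 5 at a start in Bur-0×Col-0.

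Split at gaps of over 300 nt, the windows of HDG10 fell into 4 stretches. In Bur-0×Col-0 the maternal shares from the first to the last were 22.2%, 12.1%, 25.5% and 8.45%, from 9, 33, 51 and 71 matches. In Col-0×Bur-0 they were 0%, 10.0%, 0% and 22.9%, from 6, 20, 36 and 35 matches. In every stretch the paternal allele was ahead in either cross. The share differed between windows in Bur-0×Col-0 (Fisher-Freeman-Halton exact p = 0.0138) and not detectably in Col-0×Bur-0 (p = 0.573) or with the crosses summed (p = 0.477). In the same exact test, the call in Bur-0×Col-0 was lost without lane A (p = 0.106), without lane B (p = 0.155), with repeated starts counted once per lane (p = 0.116) and in the 11 windows over 35 nt from any other matched SNP (p = 0.463).

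With both alleles summed, read starts and strands were spread for both genes. The 44 matches of FWA in Bur-0×Col-0 had 23 different combinations of start and strand and the 22 in Col-0×Bur-0 had 14, with at most 6 and 4 at any of them. Of these matches, 31 and 12 were in the direct orientation of the window and 13 and 10 in the reverse, in an unstranded library. The 164 matches of HDG10 in Bur-0×Col-0 had 115 starts, and the 97 in Col-0×Bur-0 had 82. The 10 maternal matches of HDG10 in Col-0×Bur-0 were less spread, with 6 starts and 5 matches at 1 of them. Of these 10, 9 were in the direct orientation and 1 in the reverse. The 261 matches of HDG10 came from 252 reads, as 9 reads with the paternal Bur-0 allele in Col-0×Bur-0 lay in 2 overlapping windows, and no read matched both alleles.

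Summed over the windows near each gene, matches were mostly maternal. Within 20 kb, 15 windows around FWA had maternal shares of 98.7% in Bur-0×Col-0 against 96.9% in Col-0×Bur-0, with 8 called maternal and 0 paternal. The lowest of them in Col-0×Bur-0 among those with 20 or more matches, at 13031225, had 27 maternal and 17 paternal matches there but 49 and 1 in Bur-0×Col-0. Around HDG10, 36 windows had 98.8% and 94.3%, with 12 called maternal and 0 paternal. The 29 windows before HDG10 held nearly all of these matches, 3353 maternal and 89 paternal. The 7 windows after it held 9 maternal and 7 paternal, with 0 and 6 in Col-0×Bur-0, and none was called. Over all windows of the series, 32.1% were called maternal and 0.0516% paternal, and the counts near the 2 genes were not tested against these. The nearest gene placed from the study's lists beside HDG10, AT1G34640, had 1950 maternal matches and 20 paternal in Bur-0×Col-0 against 921 and 38 in Col-0×Bur-0. The nearest placed beside FWA, AT4G25570 (ACYB-2), had 465 and 1, and 452 and 2. Just past the last window of HDG10, 4 windows 146 to 179 nt beyond it held 4 paternal matches and 0 maternal, and 3 of the 4 came from Col-0×Bur-0.

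Of 14 other class IV genes looked for, 3 could be placed, GL2, ATML1 and PDF2. All were placed because the part of the study's list of maternally biased genes used here held them, so their direction was fixed by the choice, and the other 11 (ANL2, HDG1, HDG2, HDG3, HDG4, HDG5, HDG7, HDG8, HDG9, HDG11 and HDG12) were not analysed here. GL2, known for its role in trichomes, root hairs and seed coat mucilage, had 1141 maternal matches and 1 paternal in Bur-0×Col-0 against 955 and 0 in Col-0×Bur-0, over 10 windows. ATML1 and PDF2 are closely related and specify the epidermis of shoots and embryos. ATML1 had 7283 and 72 matches in Bur-0×Col-0 against 4330 and 269 in Col-0×Bur-0, over 35 windows. PDF2 had 2118 and 67, and 1544 and 127, over 26 windows. None of their windows had less than the 2m:1p maternal share in both crosses. HDG10 alone among the 5 placed family members had a maternal share below 2m:1p, but this follows from how the 5 genes were chosen. The study reports that HDG3, HDG8 and HDG9 departed significantly from the endosperm genome ratio in a cross but not in its reciprocal. Whether a paternal excess is particular to HDG10 in the family was therefore not tested.

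ATML1 and PDF2 had a lower maternal share in Col-0×Bur-0 than in Bur-0×Col-0. The share of ATML1 was 99.0% in Bur-0×Col-0 against 94.2% in Col-0×Bur-0, a difference of 4.87 points (Fisher's exact test, adjusted p = 1.5e-51). That of PDF2 was 96.9% and 92.4%, a difference of 4.53 points (adjusted p = 9.3e-09 in the same exact test). GL2 differed by -0.088 points (adjusted p = 1 in the same exact test). In windows over 35 nt from any other matched SNP, the shares were 98.3% and 97.5% for ATML1 and 95.2% and 95.3% for PDF2, and neither difference passed (adjusted p = 0.972 and 1 in the exact test). In windows closer to another matched SNP they were 99.2% and 92.5% for ATML1 and 97.8% and 89.4% for PDF2.

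**Figure D5:**
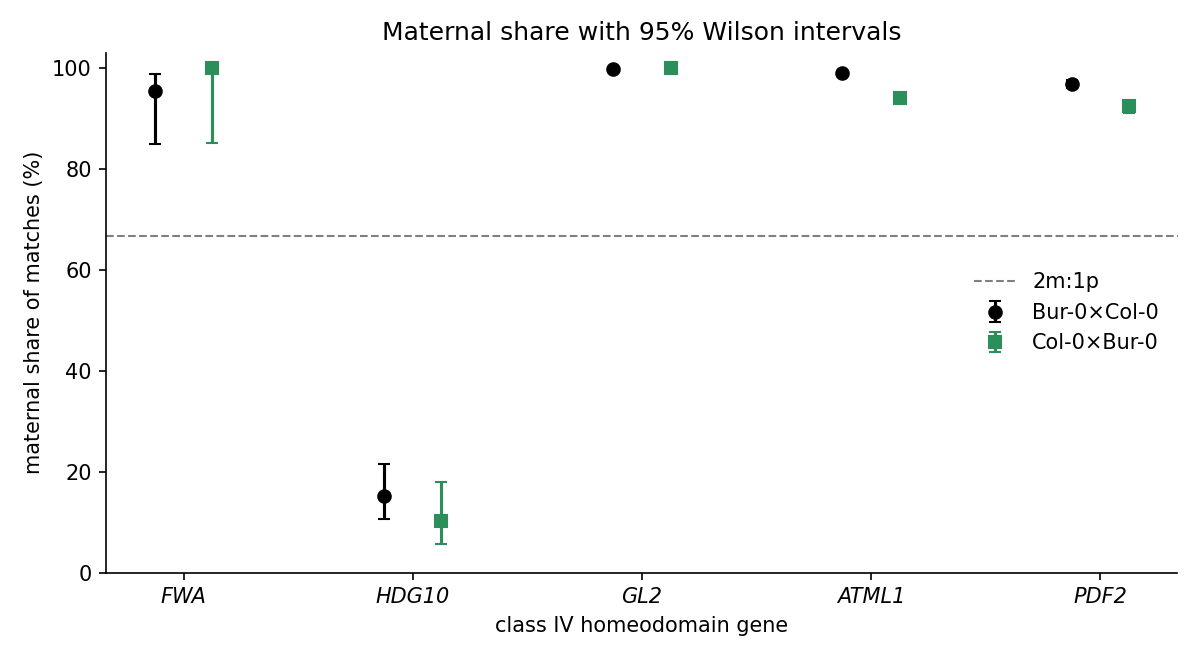
Maternal share of matches (y axis, percent) of the 5 placed class IV homeodomain genes in Bur-0×Col-0 (circles) and Col-0×Bur-0 (squares), with 95% Wilson intervals, which are shorter than the symbols for GL2, ATML1 and PDF2, and 2m:1p as a dashed line. FWA (95.5% and 100%), GL2, ATML1 and PDF2 lie above the line in both crosses, and HDG10 (15.2% and 10.3%) lies below it.

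Likeness to each gene was measured as the Euclidean distance between the maternal shares in both crosses, over 37 loci with at least 50 matches from the study's lists of imprinting candidates. Nearest to FWA were AT1G20680 (4.17 points), AT1G12180 (4.27 points) and AT3G10590 (4.29 points), each over 99.6% maternal in both crosses. Nearest to HDG10 were AT4G10160 (7.16 points), the MADS-box gene AGL23 (8.82 points) and PKR2 (12.2 points), whose product is related to the chromatin remodeller PICKLE. AGL23 had maternal shares of 23.1% in Bur-0×Col-0 against 6.25% in Col-0×Bur-0, and PKR2 had 4.49% and 16.1%. In allele-specific PCR the study found AGL23 mostly paternal in a single direction of the cross and biallelic in the reciprocal. It reports paternal preference of PKR2 by PCR in both directions. These loci were listed by parental bias in the same libraries, and each distance is over 2 libraries.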

How the data were processed

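The authors sequenced 36-nt reads of mRNA from each cross, with 4 lanes per cross. They matched the reads with vmatch to 71-nt windows around SNPs of TAIR8, with at most 2 mismatches. The deposited values are other than counts per gene, namely 1 line for each match, with window, allele, offset, strand and read name. From these, matches per window, allele, lane and cross were counted. Of 569797 windows in the index, 147349 were matched. Reads searched per lane numbered 24419438 to 34483046, and matches per lane came to 5.31% to 6.72% of them.

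Members and gene lists were chosen with earlier results of these data known. After the study's method, a one-sided exact binomial test per cross set parental matches against 2m:1p, and the larger p was squared. For q, each p was multiplied by the number of rows and divided by its rank, with 0.05 as the limit. The windows of each family gene were entered as 1 row, giving 147250 rows. Shares were compared between crosses by Fisher's exact test with Benjamini-Hochberg adjustment over 94900 rows. The adjustment had been planned over the family genes alone, and the whole table was used instead. Window shares of HDG10 were compared by the Fisher-Freeman-Halton test (R 4.3.3). Shares have 95% Wilson intervals, and ratios of RPM have intervals from the exact binomial interval of their counts. A count of 0 was set to a floor of 3 matches per library to give a fold difference, which is not a lower bound. RPM is matches per 1000000 matches of the library.

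The position of each member was taken as given. The summed counts of FWA also occur in other runs of windows, so its name rests on that position. Other genes were placed as the run of neighbouring windows whose 4 summed counts equal those in the study's lists, so these sums equal the study's by construction. The genes named are both members, the placed class IV genes, the nearest placed neighbour of each member, the 3 candidate loci nearest to each in maternal share, and the cell type markers. Windows of HDG10 named for their maternal matches were chosen after their values were seen. Gene symbols are from TAIR10.1. The exact and joint tests were checked on simulated data. The tools were SciPy 1.17.1, pandas 2.3.3 and NumPy 2.4.6 under Python 3.11.15, and Matplotlib 3.10.9 for figures. Alternatives left out lanes or windows, counted repeated starts or reads once, or changed the null ratio or the joint p.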

Additional observations from a re-analysis of the deposited data

Results flagged for a closer look

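The maternal share of 2 class IV genes differed between the crosses by the test of the difference itself (two-sided Fisher's exact test, adjusted over 94900 rows, of which 7.72% were called). ATML1 was 4.87 percentage points higher in Bur-0×Col-0 than in Col-0×Bur-0, and PDF2 was 4.53 points higher. With each lane left out in turn, the difference stayed between 4.59 and 5.20 points for ATML1 and between 4.00 and 5.09 points for PDF2. With repeated starts counted once per lane it was 11.4 and 9.40 points, and in windows over 35 nt from any other matched SNP it was 0.845 and -0.0897 points. Of the 269 paternal Bur-0 matches of ATML1 in Col-0×Bur-0, 108 lay in 1 window, which also had 443 maternal matches. The cause was not tested.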

How the results depend on the processing

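Leaving out each lane in turn changed neither gene's call. The joint p ranged from 1.8e-08 to 2.6e-05 for FWA and from 5.1e-61 to 7.5e-42 for HDG10. With lane D alone, chosen after seeing the data, FWA had 14 maternal matches and 1 paternal and its joint p was 0.0878, where fewer matches were tested. The number of windows called paternal fell from 76 to 25 with the larger p not squared, to 18 under 1m:1p and to 44 with at least 10 matches in each cross. That number rose to 87 with repeated starts counted once per lane. With each lane left out in turn, the difference between crosses ranged from -6.67 to -2.86 points for FWA and from 2.09 to 8.20 for HDG10, and without lane D of either cross it was -0.181 points for HDG10. For PDF2 it was -0.0897 points in windows over 35 nt from any other matched SNP. The window test of HDG10 in Bur-0×Col-0 gave an exact p from 0.00255 to 0.155 with a lane left out, with 0.106 without lane A. It gave 0.116 with repeated starts counted once and 0.463 in such windows, and 0.00833 when tables were ordered by the chi-square statistic, all by exact tests. It ranged from 0.329 to 0.879 in Col-0×Bur-0 and from 0.300 to 0.845 with the crosses summed. The ratio of RPM, Col-0×Bur-0 over Bur-0×Col-0, ranged from 0.513 to 0.695 for FWA and from 0.719 to 0.801 for HDG10 with a lane left out. It was 0.335 for FWA with lane D alone and 0.507 for HDG10 in such windows. The cause of these changes was not tested. No paired analysis was possible because each cross has 1 sample. FWA rests on 1 window with 22 matches in Col-0×Bur-0.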
